A study of Saccharomyces cerevisiae with 8 samples.

Results

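The genes described here encode the actin cytoskeleton of budding yeast and the endocytic patch that actin drives inward at the plasma membrane. They are 42 genes taken by name from actin, the Arp2/3 complex, its activators, the endocytic coat, actin-bundling and membrane-scission proteins, the patch kinases, the myosins, the formins and the actin cables. All 42 had at least 1 probe set that the platform annotation gives to a single gene, out of 5656 genes with such a probe set, and each was read by the brightest of these. The samples were commercial baker's yeast, Saccharomyces cerevisiae, whose strain and genotype the labels do not give. The compressed yeast, brought to an OD600 of 30 in a fermentation medium lacking sucrose and maltose, was held at -20 °C for 0, 3, 7 or 14 days and thawed at 30 °C for 10 min before RNA was taken. Every group went through this thaw, and for the 0 day group the labels do not say whether the suspension froze at all. Each time had 2 samples, described as independent duplicates, read on 1 Affymetrix array each, 8 arrays in all. In RNA from a whole suspension, fewer cells of a kind and less RNA per cell cannot be told apart.

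Actin patches are sites of endocytosis. A coat of epsins and the scaffolds Ede1, Pan1, Sla1 and End3 gathers cargo. Las17 and the type I myosins then switch on the Arp2/3 complex, which builds branched actin filaments that push the membrane inward. Capping protein, fimbrin, cofilin and Aip1 shape and dismantle that network, while formins and tropomyosin build the unbranched cables along which type V myosins carry cargo into the bud. In budding yeast, stress of several kinds is known to disperse cables and depolarise patches for a time.

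Values below are probe set intensities after quantile normalisation across the arrays, on a linear scale, and fold changes are differences of their log2 means. Of the 42 genes, 39 passed the filter on low intensity and entered the tests, which were fitted over 5188 genes. A gene was called where the limma adjusted p was under 0.05. The 3 that did not pass were the patch kinases PRK1 and ARK1 and the formin BNR1, with mean log2 intensities of 3.24, 3.51 and 3.20 against a filter at 4.16. The dimmest that passed was MYO1, at 4.29. Levels of different genes are not compared, since probe sets differ in brightness.

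Of the 39 tested genes, 1 was called, and only at 14 days against 0 days. ARC18, a small subunit of the Arp2/3 complex, rose after 14 days, and it was also called for a difference among the 4 times. Of all genes tested, 1.73% were called at 14 days against 0 days, 0.212% at 7 days and 0% at 3 days. The F test over the 4 times called 1 member, beside 2.58% of all genes, and 4 members at an unadjusted p under 0.05, beside 21.4% of all genes. The plot of all members by array shows ARC18 and, less strongly, SLA1 and ABP1 with higher values on the later arrays.

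**Figure D1:**
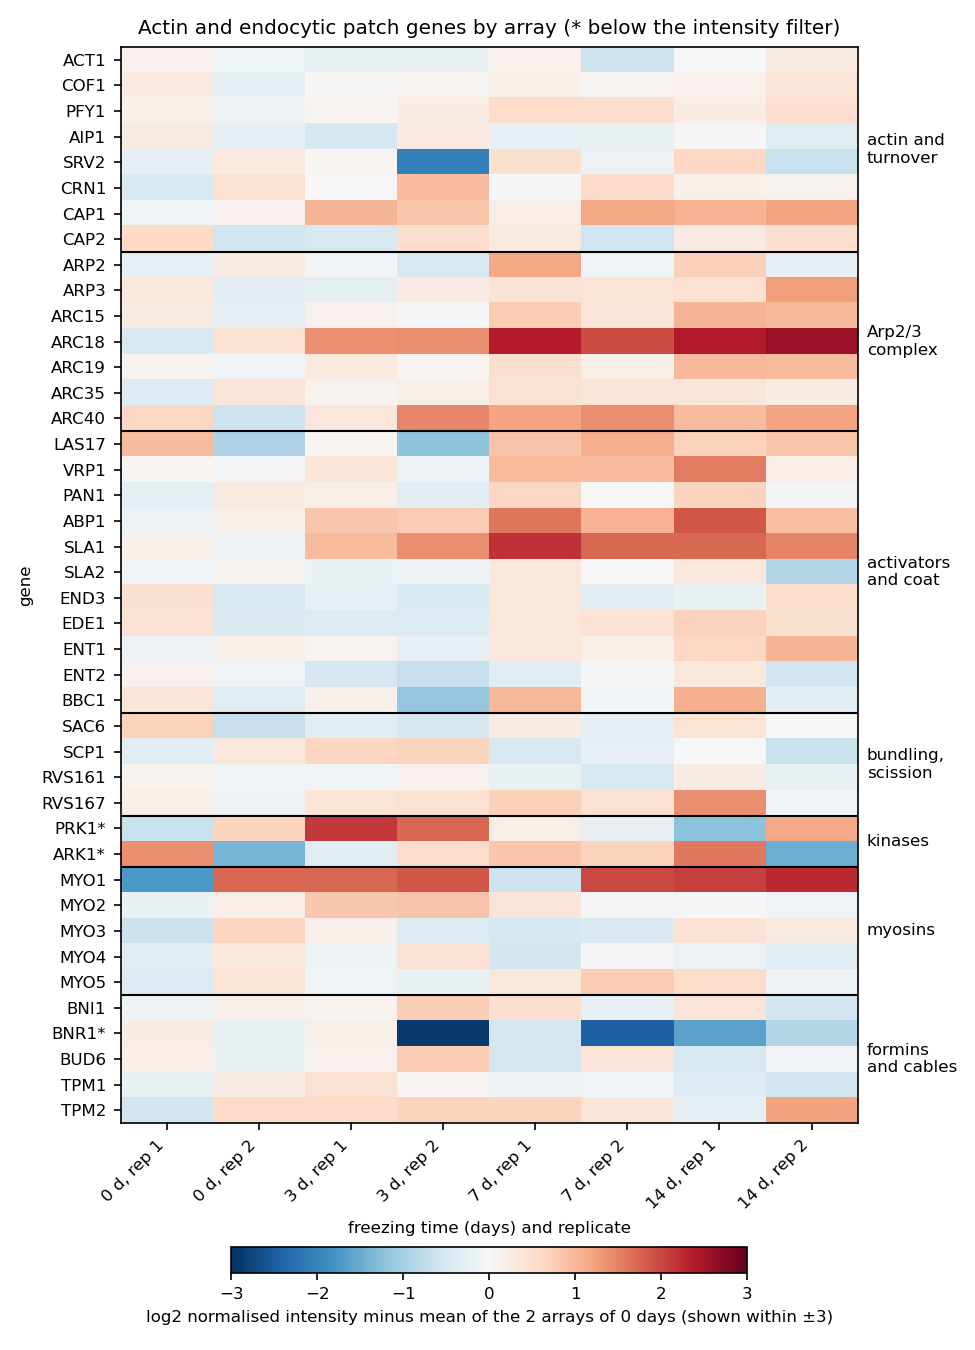
Each row is a gene and each column an array, from 0 to 14 days; colour is the log2 normalised intensity minus the mean of the 2 arrays of 0 days, shown within ±3, and asterisks mark the 3 genes below the intensity filter. ARC18 is higher on all 6 arrays of 3, 7 and 14 days, while rows such as ACT1, COF1 and RVS161 stay pale throughout.

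Median deposited signals ran from 51.6 to 110, and replicates correlated across genes at r = 0.877 to 0.938, lowest at 0 days. These correlations describe the arrays, since genes are not independent replicates. Ribosomal RNA control probe sets stood 6.76 to 11.3 times above the array median on the arrays of 0 and 3 days and 15.7 to 22.7 times above it on those of 7 and 14 days. Their part in the results below was not tested. Within each time, the array with less signal from the spiked poly(A) controls is called set 1 (replicate 1 of 0 days and replicate 2 of 3, 7 and 14 days) and the other set 2. Their mean log2 spiked signals were 4.22 and 4.35 at 0 days, while at later times set 1 had 3.96 to 4.89 and set 2 had 5.70 to 6.97. The spiked signal thus hardly separates the 0 day arrays, and 0 day replicate 2 lies in the range of set 1, which limits every value against 0 days that is given within a set. On unnormalised values the median log2 fold change of all genes was 0.98 at 7 days and 0.59 at 14 days against 0 days. The median difference between the replicates of a member, on the log2 scale, was 0.56 at 0 days, 0.24 at 3 days, 0.38 at 7 days and 0.35 at 14 days. The 0 day pair was thus the widest for these genes.

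ACT1 (YFL039C), the single actin gene of budding yeast, showed no detectable difference between times. Its normalised intensities were 5040 and 4220 at 0 days, 3980 and 4020 at 3 days, 5040 and 3020 at 7 days and 4580 and 5590 at 14 days. The arrays of 14 days and 0 days overlapped, and the widest pair of replicates was that of 7 days. The log2 fold change at 14 days against 0 days was 0.13 ± 0.29 (SE, limma adjusted p = 0.823), with a 95% interval from -0.49 to 0.76. With equal array medians in place of quantile normalisation it was -0.16, and without 14 day replicate 2 it was -0.01, so it has no settled sign.

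The array also carries 3 control probe sets for ACT1, along the 5' end, the middle and the 3' end of the transcript, which give a second reading of the same gene. Divided by the array median, the 3' set stood at 65.9 and 58.8 at 14 days against 56 and 87.2 at 0 days, and the 5' set at 29.6 and 29.2 at 14 days against 36.3 and 30.5 at 0 days. The gene's own probe set stood at 56.7 and 60.9 at 14 days against 57.7 and 74.5 at 0 days on this scale. All 4 readings of ACT1 therefore lay lower at 14 days relative to the array median, by 0.16 to 0.31 on the log2 scale, and the arrays of 14 and 0 days overlapped for the 3' set and the gene's own set but not for the middle and 5' sets. The ratio of the 3' to the 5' set was 1.54 and 2.86 at 0 days, 2.78 and 1.41 at 3 days, 2.16 and 1.70 at 7 days and 2.23 and 2.01 at 14 days. It differed more between the replicates of 0 and 3 days than between the means of the times. At each time the ratio was higher on the set 2 array (2.16 to 2.86) than on the set 1 array (1.41 to 2.01). The cause of this was not tested.

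**Figure D2:**
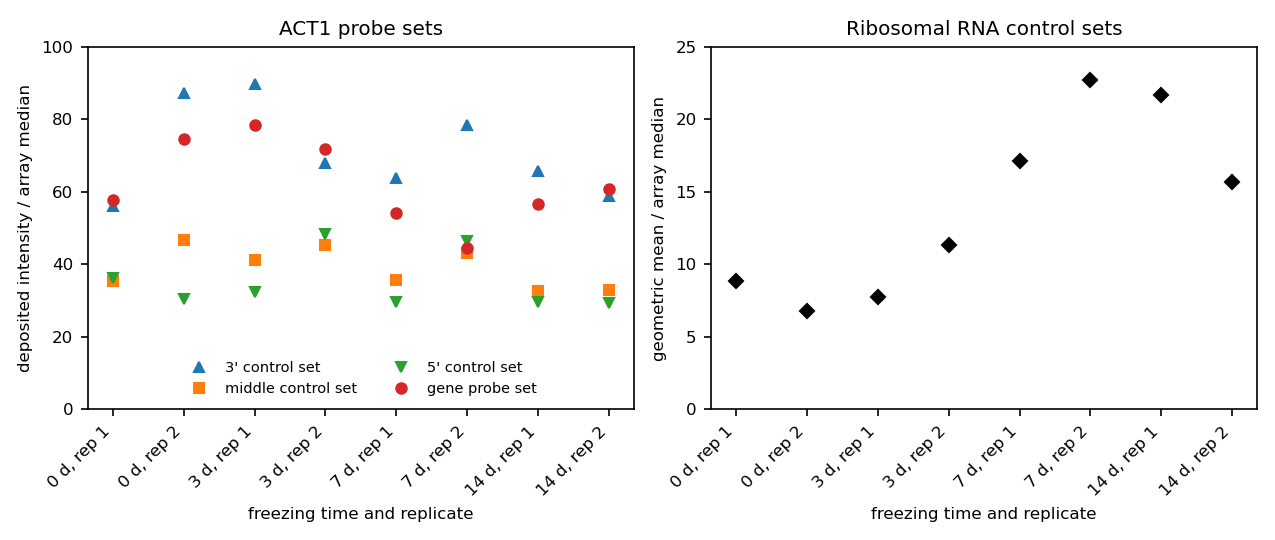
Left, the 3 ACT1 control probe sets and the gene's own probe set on each array, as deposited intensity divided by the array median; right, the geometric mean of the ribosomal RNA control sets on the same scale. The 4 ACT1 readings lie lower at 14 days than at 0 days on average, by 0.16 to 0.31 on the log2 scale, while the ribosomal RNA sets run from 6.76 to 11.3 at 0 and 3 days and from 15.7 to 22.7 later.

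Of the genes that recycle actin monomers and turn filaments over, COF1 and PFY1 gave narrow ranges. COF1, cofilin, which severs old filaments, had 1220 and 814 at 0 days, 1020 and 1060 at 3 days, 1120 and 1060 at 7 days and 1100 and 1310 at 14 days. PFY1, profilin, which loads monomers onto growing ends, had 1830 and 1490 at 0 days, 1740 and 1930 at 3 days, 2400 and 2350 at 7 days and 1940 and 2320 at 14 days. For COF1 the highest array was 1.61 times the lowest, and for PFY1 also 1.61 times. At 14 days against 0 days their log2 fold changes were 0.26 (95% interval -0.47 to 1.0, limma adjusted p = 0.677) and 0.36 (95% interval -0.26 to 0.99, limma adjusted p = 0.474). The arrays of COF1 overlapped between 14 and 0 days, and those of PFY1 did not.

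CAP1, the alpha subunit of capping protein, which stops growth at the fast-growing filament end, had 45.9 and 54.1 at 0 days, 101 and 89.4 at 3 days, 57.3 and 111 at 7 days and 103 and 113 at 14 days. Both 14 day arrays lay above both 0 day arrays (log2 fold change 1.11 ± 0.43 SE, limma adjusted p = 0.163). CAP2, the beta subunit of the same dimer, had 115 and 135 at 14 days against 146 and 63 at 0 days, and these overlapped. AIP1, which works with cofilin, gave the smallest F of the members (limma adjusted p = 0.972), with 229 and 174 at 14 days against 269 and 187 at 0 days. SRV2, which frees monomers from cofilin, varied most in this group through a single low array, at 14.6 for 3 day replicate 2 against 63.1 for replicate 1. The coronin CRN1 had an adjusted F p of 0.881 in limma. Of these 8 genes including ACT1, 0 were called in limma at 14 days. At an unadjusted p under 0.05, 1 was higher, where 12.8% of all genes were. The median log2 fold change was 0.20 beside 0.11 for all genes.

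In the Arp2/3 complex, the 7-subunit machine that nucleates branched filaments, all 7 genes had log2 fold changes above 0 at 14 days against 0 days, with a median of 0.96 beside 0.11 for all genes tested, where 55.6% of genes were above 0. Only ARC18 was called. Set 1 alone gave a median of 0.71 and set 2 alone 1.08, while leaving out 0 day replicate 1 or 2 gave 1.20 or 0.69. All 7 were also above 0 on unnormalised values and with equal array medians, but ARP2 (-0.02) and ARC35 (-0.10) were below 0 without 0 day replicate 1, and ARP2 (-0.26) without 14 day replicate 1. At 7 days against 0 days all 7 were again above 0, where 59.0% of all genes were, with a median of 0.52 beside 0.17 for all genes, but 0.12 within set 1 and 0.93 within set 2.

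ARC18 (YLR370C) had 19.7 and 36.8 at 0 days, 69.2 and 70.8 at 3 days, 139 and 104 at 7 days and 140 and 163 at 14 days. The lower 0 day array was near the intensity filter, which is 17.9 on this scale. None of the 6 later arrays came down to the higher 0 day array, and the 7 and 14 day arrays all stood above those of 3 days. At 14 days it rose 5.60-fold, by 2.49 ± 0.43 (SE, n = 2 arrays a time) on the log2 scale, at an adjusted p of 0.0257 in limma (95% interval 1.53 to 3.44). At 7 days the log2 fold change was 2.16 (limma adjusted p = 0.0566) and at 3 days 1.38 (limma adjusted p = 0.623), neither called. The F test over the 4 times gave a limma adjusted p of 0.0393. The 14 day call ended without 14 day replicate 1 (adjusted p = 0.0978 in limma) or 2 (adjusted p = 0.192), with array weights, with no intensity trend and in a fit of these times alone, and held in the other 15 of 20 alternatives, where the log2 fold change lay between 2.09 and 2.93. The F call ended in 9 of 19 alternatives: without a filter, without the trend, and without any 1 array other than 0 day replicate 2.

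ARC15 and ARC19, further small subunits of the complex, had tight replicates at 14 days. ARC15 had 701 and 489 at 0 days, 636 and 560 at 3 days, 994 and 761 at 7 days and 1190 and 1140 at 14 days. ARC19 had 377 and 322 at 0 days, 430 and 362 at 3 days, 485 and 395 at 7 days and 683 and 671 at 14 days. For both genes the 14 day arrays lay above all 6 earlier arrays. Their log2 fold changes at 14 days against 0 days were 1.0 ± 0.35 SE (limma adjusted p = 0.134) and 0.96 ± 0.35 SE (limma adjusted p = 0.144), and ARC15 passed the threshold on unnormalised values (adjusted p = 0.0427 in limma).

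The remaining subunits were less uniform. ARC40, the WD-repeat subunit, had 279 and 119 at 0 days, 230 and 502 at 3 days, 416 and 475 at 7 days and 347 and 417 at 14 days, with a log2 fold change of 1.29 at 7 days (limma adjusted p = 0.198) and 1.06 at 14 days (limma adjusted p = 0.237). Both rested on the 0 day arrays: without 0 day replicate 1 they were 1.93 and 1.71, and without replicate 2 they were 0.67 and 0.45. ARP3, one of the actin-related subunits that start the new filament, had 231 and 147 at 0 days, 154 and 218 at 3 days, 247 and 245 at 7 days and 252 and 439 at 14 days. Its log2 fold change at 14 days was 0.85 (limma adjusted p = 0.257), and it was 0.46 without 14 day replicate 2 and 0.53 without 0 day replicate 2. ARP2, its partner, had 107 and 54.4 at 14 days against 55.4 and 77 at 0 days (log2 fold change 0.22). ARC35 had 93.9 and 84.4 at 14 days against 55.3 and 95.4 at 0 days (log2 fold change 0.29), so both overlapped. The difference between ARC18 and the other subunits was not tested.

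**Figure D3:**
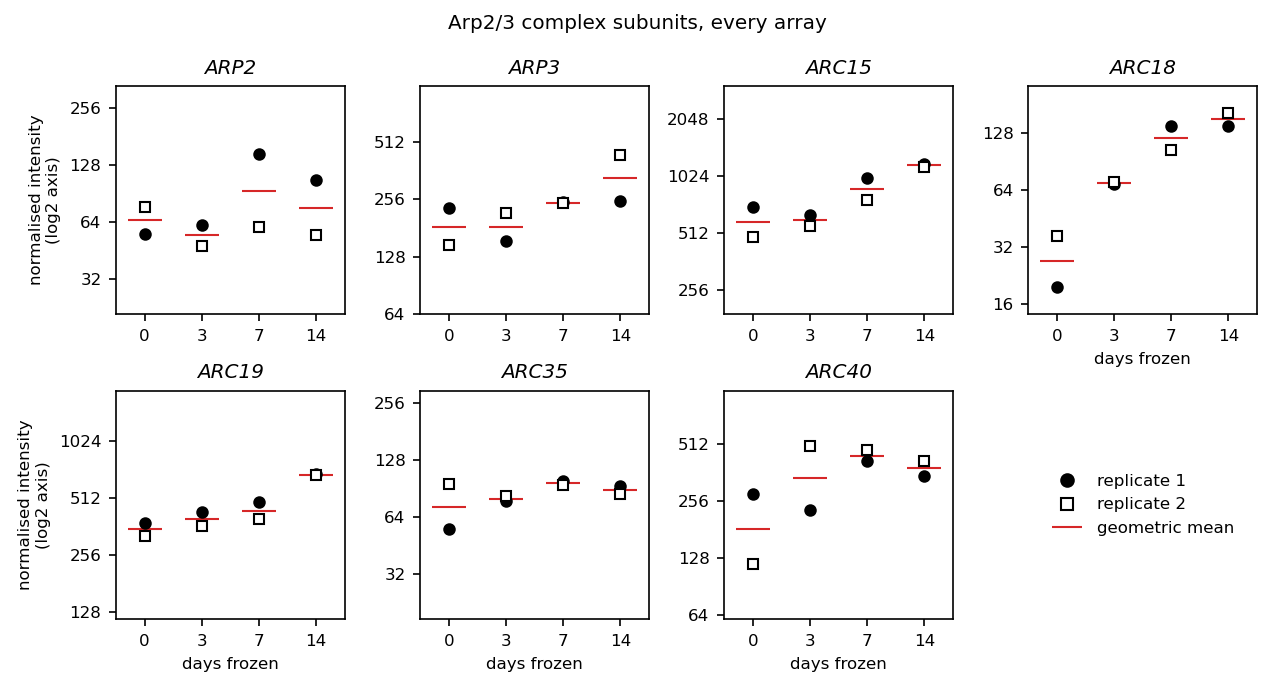
Each panel gives a subunit of the Arp2/3 complex, with normalised intensity on a log2 axis of equal span against days frozen; circles are replicate 1, squares replicate 2 and bars the geometric mean. ARC18 runs from a mean of 26.9 at 0 days to 151 at 14 days, ARC15 and ARC19 are highest at 14 days, and the replicates of ARP2 and ARC35 overlap between 14 and 0 days.

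Against 3 days, the time at which the replicates of the members lay closest, the Arp2/3 genes gave a smaller median. The comparison shares its 14 day arrays with the one above. At 14 days against 3 days all 7 were above 0, with a median of 0.78 beside 0.02 for all genes (50.9% of them above 0), and 5 of 7 had both 14 day arrays above both 3 day arrays, where 28.6% of all genes did. The log2 fold changes were 1.11 for ARC18 (limma adjusted p = 0.150), 0.97 for ARC15 (limma adjusted p = 0.125) and 0.78 for ARC19 (limma adjusted p = 0.197). These 3 were higher at an unadjusted p under 0.05, where 12.9% of all genes were. None was called, in a comparison in which limma called 4.59% of all genes.

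Among 11 genes for Arp2/3 activators and the endocytic coat, 0 were called in limma at 14 days, and 2, SLA1 and ABP1, were higher at an unadjusted p under 0.05. All genes gave 12.8% higher at that p. The group's median log2 fold change was 0.59 beside 0.11 for all genes, but 0.06 within array set 1 and 1.13 within set 2. SLA1, a coat scaffold that binds cargo and restrains Las17, had 22 and 17.7 at 0 days, 38.3 and 52.2 at 3 days, 88.2 and 65.5 at 7 days and 65 and 55.3 at 14 days. All 6 frozen arrays lay above both 0 day arrays. Those 0 day arrays were near the intensity filter, which is 17.9 on the linear scale. A filter at the median left SLA1 and ABP1 out. The log2 fold changes of SLA1 were 1.18 at 3 days, 1.94 at 7 days and 1.60 at 14 days, with limma adjusted p of 0.690, 0.104 and 0.108. The 7 day value passed the threshold on unnormalised values (adjusted p = 0.0123 in limma), where the median of all genes was 0.98.

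ABP1, which binds filaments, activates Arp2/3 and recruits the patch kinases, was likewise lowest at 0 days. It had 32.3 and 40.8 at 0 days, 64.4 and 61.8 at 3 days, 111 and 74.9 at 7 days and 132 and 67.4 at 14 days. The frozen arrays again all lay above those of 0 days, with a log2 fold change of 1.33 at 7 days (limma adjusted p = 0.178) and 1.38 at 14 days (limma adjusted p = 0.125). It was 0.89 without 14 day replicate 1.

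LAS17, the yeast WASP protein and main activator of Arp2/3, had 78.1 and 21.7 at 0 days, 42.9 and 17.8 at 3 days, 74.4 and 87 at 7 days and 66 and 73.3 at 14 days. Its replicates lay far apart at 0 and 3 days, and the log2 fold change of 0.76 at 14 days against 0 days became 1.72 without 0 day replicate 1 and -0.17 without 0 day replicate 2. VRP1, verprolin, which binds Las17 and the type I myosins, had 91.6 and 90.3 at 7 days and 139 and 54.7 at 14 days, against 49.9 and 45.8 at 0 days (log2 fold change 0.87 at 14 days, limma adjusted p = 0.338). That value was 0.19 without 14 day replicate 1 and 1.56 without 14 day replicate 2. LAS17 also had the widest gap of the group between 7 and 3 days (log2 fold change 1.54, limma adjusted p = 0.223), which was 2.18 without 3 day replicate 1 and 0.92 without 3 day replicate 2.

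The coat genes EDE1, ENT1 and ENT2 had no call and differed among themselves. EDE1, the first scaffold at a new site, had 233 and 128 at 0 days, 130 and 131 at 3 days, 221 and 232 at 7 days and 281 and 242 at 14 days. Its 7 and 14 day arrays lay above both 3 day arrays (log2 fold change 1.0 at 14 against 3 days, limma adjusted p = 0.146). The epsins ENT1 and ENT2, clathrin adaptors from a duplicated gene, had their highest geometric means at 14 days (149) and 0 days (191), respectively. The highest single array of ENT2 was also at 14 days. ENT1 had 73.9 and 95.1 at 0 days, 89.2 and 70.4 at 3 days, 107 and 95.3 at 7 days and 130 and 171 at 14 days, and its log2 fold change at 14 days was 0.83 against 0 days (limma adjusted p = 0.228) and 0.91 against 3 days (limma adjusted p = 0.169). ENT2 had 207 and 176 at 0 days, 134 and 118 at 3 days, 148 and 186 at 7 days and 239 and 129 at 14 days (limma F test, adjusted p = 0.703). The difference between ENT1 and ENT2 was not tested.

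The other members of this group overlapped between 14 and 0 days. PAN1, the scaffold that also activates Arp2/3, had 431 and 253 at 14 days against 222 and 327 at 0 days. SLA2, which links the coat to actin, had 233 and 100 at 14 days against 171 and 197 at 0 days, and END3, the partner of Pan1 and Sla1, 70.4 and 118 at 14 days against 113 and 57 at 0 days. Adjusted F p values in limma were 0.862, 0.871 and 0.850. BBC1, an inhibitor of patch assembly, was read by a pair of probe sets past the filter. They gave log2 fold changes of 0.38 and -0.25 at 14 days and of -0.50 and -2.16 at 3 days, against 0 days, so no course can be given for BBC1.

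Bundling and scission genes had no call. SAC6, fimbrin, which bundles patch filaments, had 258 and 98.2 at 0 days, 128 and 110 at 3 days, 188 and 132 at 7 days and 210 and 158 at 14 days, and its 0 day replicates spanned every other array (limma F test, adjusted p = 0.787). SCP1, a calponin-like bundling protein, was highest at 3 days, with 134 and 206 at 0 days, 259 and 265 at 3 days, 119 and 139 at 7 days and 165 and 105 at 14 days. All 7 and 14 day arrays of SCP1 lay below both 3 day arrays, with log2 fold changes of -1.03 at 7 days and -0.99 at 14 days, against 3 days (limma adjusted p = 0.179 and 0.152), the first of which was -0.41 on unnormalised values. The amphiphysin pair that pinches vesicles off gave 280 and 206 at 14 days against 259 and 225 at 0 days for RVS161, and 625 and 225 at 14 days against 268 and 209 at 0 days for RVS167. The high 14 day value of RVS167 came from replicate 1 alone. RVS167 had 313 and 326 at 3 days and 386 and 325 at 7 days, all above both 0 day arrays. Its limma adjusted p against 0 days was 0.843 and 0.535. Of all genes, 20.9% and 29.8% had arrays above those of 0 days in this way. RVS161 had 225 and 265 at 3 days and 206 and 172 at 7 days, the latter below both 0 day arrays, where 20.5% of all genes were.

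The patch kinases, which take the coat apart by phosphorylating Pan1 and Sla1, were too dim to follow. PRK1 had 4.31 and 10.9 at 0 days, 29.9 and 22.6 at 3 days, 7.89 and 5.81 at 7 days and 2.93 and 15.2 at 14 days, against a floor of 2.52. Its relative ARK1 had 25.7 and 3.68 at 0 days, 7.67 and 14.2 at 3 days, 17.3 and 15.3 at 7 days and 29.1 and 3.55 at 14 days. Replicates of ARK1 at 0 and 14 days differed more than any of its time means did.

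Of 5 myosin genes, 0 were called in limma in any comparison, with 1 higher at an unadjusted p under 0.05 at 3 days against 0 days and 1 lower at 14 against 3 days, both MYO2, beside 4.14% higher and 11.7% lower over all genes. MYO2, the type V motor that carries vesicles along cables, had 144 and 189 at 0 days, 287 and 301 at 3 days, 215 and 161 at 7 days and 162 and 153 at 14 days. Like SCP1 it was highest on both 3 day arrays, with a log2 fold change of 0.83 at 3 against 0 days (limma adjusted p = 0.690) and -0.91 at 14 against 3 days (limma adjusted p = 0.154). MYO4, the type V motor for messenger RNA, had 193 and 177 at 14 days against 176 and 272 at 0 days.

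The type I patch myosins MYO3 and MYO5, from a duplicated gene, both had wide replicates. MYO3 had 20.8 and 51.4 at 0 days, 36.1 and 24.6 at 3 days, 22.6 and 24.1 at 7 days and 43.9 and 39.7 at 14 days. MYO5 had 38.4 and 67.9 at 0 days, 46.5 and 44.2 at 3 days, 64.6 and 86.5 at 7 days and 75.1 and 45.6 at 14 days. For each, the 14 day arrays lay within or across the range of the 0 day arrays (limma F test, adjusted p = 0.811 and 0.723).

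MYO1, the myosin of the cytokinetic ring, shows what a single probe set can give. The annotation assigns it 8 probe sets, of which only the brightest passed the filter. That one had 2.66 and 29.2 at 0 days, 29.3 and 31.8 at 3 days, 5.72 and 34.6 at 7 days and 36.4 and 41.7 at 14 days, so 0 day replicate 1 was next to the floor. Its log2 fold change at 14 days of 2.14 had an SE of 1.24 and a 95% interval from -0.59 to 4.88 (limma adjusted p = 0.339). Across the 8 probe sets the value ran from -4.07 to 2.14, and 4 of them were above 0. Without either 14 day array the next probe set became the brightest and the value was -3.87 or -4.26, so no direction is given for MYO1.

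**Figure D4:**
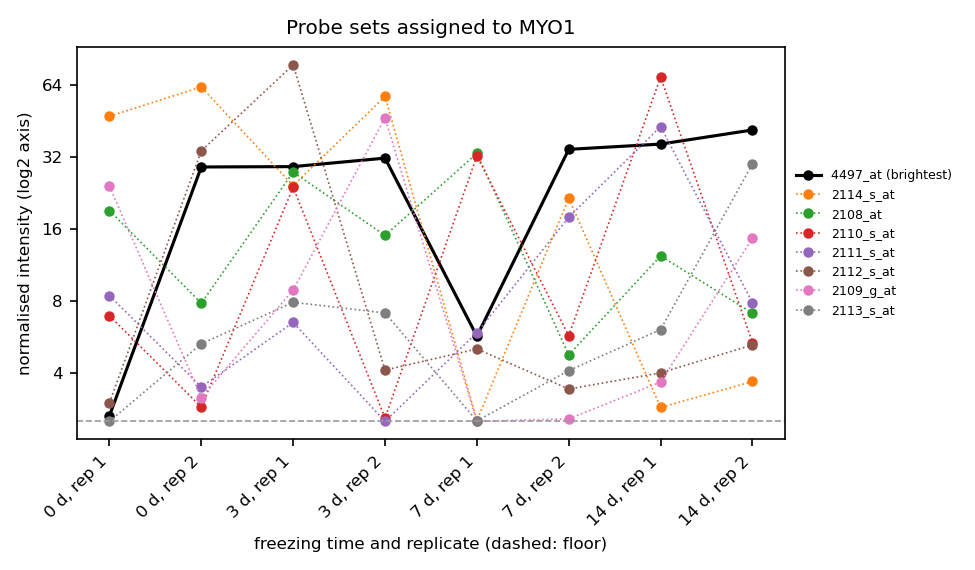
Normalised intensities of the 8 probe sets assigned to MYO1 on each array, on a log2 axis, with the floor of 2.52 dashed and the brightest set in black. The lines of the sets cross, and 3 of the other 7 sets reach the floor on at least 1 array.

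Genes for formins and actin cables were below 0 against 3 days, where the Arp2/3 genes were above it, though none was called and the difference was not tested. At 3 days against 0 days all 4 tested genes had been above 0, with a median of 0.43 beside 0.08 for all genes (55.3% of them above 0). At 14 days against 0 days 1 of the 4 tested genes, TPM2, was above 0, and the median was -0.18. At 14 days against 3 days all 4 tested genes had log2 fold changes below 0, with a median of -0.61 beside 0.02 for all genes, and -0.77 within array set 1 and -0.70 within set 2. On unnormalised values 1 of the 4 was above 0, where the median of all genes was 0.25. For 7 against 3 days all 4 were below 0, with a median of -0.35 beside 0.08 for all genes. On unnormalised values all 4 were above 0 in that comparison, with a median of 0.34 beside 0.63. TPM1, the major tropomyosin that coats cables, had 247 and 341 at 0 days, 397 and 308 at 3 days, 260 and 267 at 7 days and 221 and 194 at 14 days. Both 14 day arrays of TPM1 lay below all the others, at a log2 fold change of -0.49 against 0 days (95% interval -1.29 to 0.32, limma adjusted p = 0.457), which was 0.04 on unnormalised values.

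TPM2, the minor tropomyosin, had 33.6 and 75 at 0 days, 74.2 and 79.1 at 3 days, 80.3 and 64.5 at 7 days and 41.8 and 116 at 14 days (limma F test, adjusted p = 0.839). Its 14 day arrays were its lowest but 1 and its highest, and the difference from TPM1 was not tested. BNI1, the formin of the bud tip, had 172 and 216 at 0 days, 206 and 322 at 3 days, 270 and 166 at 7 days and 253 and 133 at 14 days. BUD6, its partner in nucleation, had 66 and 83.8 at 14 days against 104 and 78.5 at 0 days. BNR1, the formin of the bud neck, could not be set against BNI1, with 21.8 and 16 at 0 days, 21.1 and 2.52 at 3 days, 13.1 and 3.45 at 7 days and 6.14 and 10.1 at 14 days, 1 of these arrays being at the floor.

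**Figure D5:**
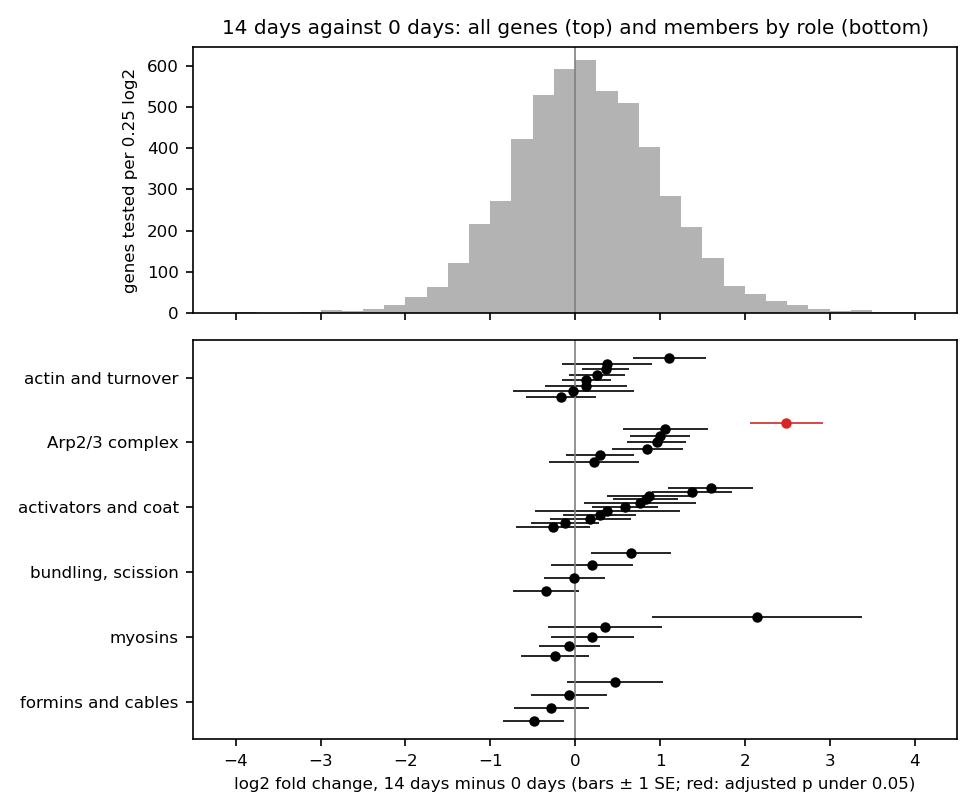
Top, the number of genes tested per 0.25 of log2 fold change for 14 days against 0 days; bottom, the 39 tested members by role, as points with bars of ± 1 SE, with ARC18, the called gene, in red. The Arp2/3 genes all lie right of 0, with a median of 0.96, while the other roles straddle it.

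Over all 39 tested members, called and unadjusted counts are given beside those of the whole array. At 14 days 28 were above 0 and the median log2 fold change was 0.29 beside 0.11 for all genes (0.10 within array set 1, 0.40 within set 2). At an unadjusted p under 0.05, 6 members were higher (12.8% of all genes) and 0 lower (9.37%). Both 14 day arrays lay above both 0 day arrays for 13 of 39 members (33.3%, where 28.0% of all genes did) and below them for 1 (where 22.9% did). At 7 days 0 members were called by limma, with 4 higher and 0 lower at an unadjusted p under 0.05 (12.2% and 6.75% of all genes). The arrays of 7 days lay above those of 0 days for 12 members (where 29.8% of all genes did) and below for 1 (where 20.5% did). At 3 days limma called 0 members, with 3 higher and 0 lower at an unadjusted p under 0.05 (4.14% and 2.87% of all genes) and a median of 0.07 beside 0.08 for all genes. Its arrays lay above those of 0 days for 8 members (20.9% of all genes) and below for 3 (14.2%).

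Between frozen times limma called 0 members as well. For 7 against 3 days, where 1.20% of all genes were called, 1 member, LAS17, was higher and 1, SCP1, lower at an unadjusted p under 0.05 (11.8% and 8.54% of all genes), and the arrays did not overlap for 15 higher and 5 lower (30.3% and 24.8% of all genes). For 14 against 3 days, where 4.59% were called, 5 were higher and 2 lower at an unadjusted p under 0.05 (12.9% and 11.7% of all genes), and 18 of 39 members (46.2%) had both 14 day arrays above both 3 day arrays, where 28.6% of all genes did, while 5 had them below, where 28.5% did. For 14 against 7 days 0 members were at an unadjusted p under 0.05, beside 0.925% of all genes, in a comparison that called 0% of all genes.

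Further genes of endocytosis, listed beside the members, had no call at 14 days against 0 days. Of 30 other endocytic coat, adaptor and patch genes, limma called 0, with 7 higher and 1 lower at an unadjusted p under 0.05 and a median log2 fold change of 0.43, beside 12.8% higher, 9.37% lower and a median of 0.11 for all genes. The smallest F p among them was that of PIN3, whose product binds Las17, with 802 and 270 at 0 days, 386 and 309 at 3 days, 1670 and 947 at 7 days and 1250 and 979 at 14 days (limma F test, adjusted p = 0.110).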

How the data were processed

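The authors deposited linear intensities per probe set for each array. What software summarised them, and with which scaling, is not given in the sources used here. Per the labels' protocols, poly(A) RNA was labelled with biotin for Affymetrix arrays. The table held 9335 probe sets, 60 of them controls. Annotation gave 6504 to 1 gene, 328 to several and 2443 to none.

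Controls were removed and the arrays quantile normalised. A floor was then set at the 5th percentile of all values (2.52), before log2. Probe sets with a mean below the 25th percentile (4.16) were left out, and each gene was read by its brightest probe set. Limma 3.58.1 in R 4.3.3 fitted 1 mean per freezing time to all 8 arrays (4 residual and 6.89 prior degrees of freedom, intensity trend). Tests were two-sided, with Benjamini-Hochberg adjustment over 5188 genes. Precision is limited by having 2 arrays a time (median SE 0.45 on the log2 scale). In data simulated for 14 days against 0 days over 5188 genes, 7.58% of genes changed by 1 on the log2 scale, 53.7% of those changed by 2 and 98.5% of those changed by 3 were called. The simulation changed 66 or 67 genes at each size and drew independent noise without array sets, so its rates need not hold for these arrays.

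The members, the lists and the rule for named genes were chosen with earlier results of these data known. The rule gives values per array for called members, the 10 with the smallest F p, the 5 largest rises and falls at 14 days, 14 genes fixed by name and the paralogue pairs. Other members described were added after their values were seen. Alternatives covered the normalisation, filter, floor, probe set rule, limma settings, blocks and each array left out. No sequences were used here. The labels call the duplicates independent samples. The result of 1 further gene list is not reported here.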

Additional observations from a re-analysis of the deposited data

How the results depend on the processing

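Each result was recomputed under up to 20 alternatives (19 for the F test and for members that a filter at the median leaves out), and the cause of a change was not tested unless stated. The count of 1 called member at 14 days was 2 on unnormalised values and 0 without the intensity trend, with array weights and in a fit of the compared times alone, and it ran from 0 to 1 when an array was left out, with 0 without either 14 day array. For 7 against 0 days, where 0 were called, the count was 12 on unnormalised values, 1 with equal array medians, 1 with a filter at the median, 1 with array set as a block and 0 to 1 with an array left out. ARC18 was among the 12 on unnormalised values and was the 1 gene in the other cases. For 7 against 3 days it was 1 on unnormalised values, which was EDE1. Over all genes on unnormalised values, 1422 of 5191 were called at 7 days and 403 at 14 days against 0 days. For 7 against 3 days 620 were. Equal array medians gave 35 calls over all genes at 7 days against 0 days, where the fit used above gave 11. The median filter gave 58 of 3791 there, and blocking by array set gave 83. At 14 days against 0 days the fit used above called 90 of all genes. Dropping the intensity trend left 11 of all genes called, weighting the arrays left 17 and fitting only those times left 0. The F test's count of 1 was 5 on unnormalised values. No count over all genes is given there, so the 5 cannot be read as a result about the members. The F test's count was 0 without a filter and 0 without the intensity trend.

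The members' median log2 fold change was 0.33 at 3 days, 1.08 at 7 days and 0.78 at 14 days against 0 days on unnormalised values, beside 0.34, 0.98 and 0.59 over all genes. On these values it was 0.87 for 7 against 3 days, 0.62 for 14 against 3 days and -0.31 for 14 against 7 days. With a filter at the median, which keeps 29 members, it was 0.15 and 0.21 for 7 and 14 against 3 days. With an array left out it ran from 0.15 to 0.35 at 7 days against 0 days, from 0.16 to 0.35 for 7 against 3 days, from 0.19 to 0.47 for 14 against 3 days and from -0.13 to 0.24 for 14 against 7 days. Signs turned at 14 days against 0 days for TPM1 on unnormalised values (0.04) and for ACT1 with equal array medians (-0.16). With an array left out, the values ran from -0.26 to 0.71 for ARP2, -0.10 to 0.69 for ARC35, -0.03 to 0.56 for COF1, -0.17 to 1.72 for LAS17, -0.01 to 0.28 for ACT1 and -4.26 to 3.88 for MYO1.

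Replicate numbers of the labels were not shown to pair the samples: same-numbered arrays deviated together at r from -0.09 to 0.29 between times. With the replicate block 1 member, ARC18, stayed called at 14 days (limma adjusted p = 0.0258), and no other member's call changed. Over all genes the count of 90 at 14 days ran from 0 to 403 over the alternatives, that of 11 at 7 days from 0 to 1422, that of 62 for 7 against 3 days from 0 to 620 and that of 238 for 14 against 3 days from 2 to 440.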

Other observations

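Other parts of the cytoskeleton and the membrane gave a few calls. Among 9 eisosome genes, which mark furrows of the plasma membrane where patches do not form, NCE102 rose at 14 days against 0 days by 2.28 ± 0.45 (SE) on the log2 scale (adjusted p = 0.0358 in limma), and against 3 days by 2.31 (adjusted p = 0.0238 in limma). It had 707 and 292 at 0 days, 505 and 393 at 3 days, 1880 and 1530 at 7 days and 1780 and 2750 at 14 days. The call against 0 days ended when either 14 day array was left out. It also ended in a fit of these times alone, where 0 genes were called. The eisosome list had a median of 1.29 at 14 days against 0 days, but 0.10 within array set 1 and 1.55 within set 2, whose 0 day arrays the spiked signal hardly separates. Among 11 tubulin and microtubule-associated genes, DYN1, the dynein heavy chain, fell at 7 days against 3 days (log2 fold change -2.05 ± 0.41 SE, limma adjusted p = 0.0452). It had 33.9 and 38.4 at 7 days against 115 and 193 at 3 days. The DYN1 call ended when 7 day replicate 2 was left out. It also ended without the intensity trend, where 0 genes were called for 7 against 3 days.

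Prefoldin and the CCT chaperonin fold new actin and tubulin. For 14 against 3 days limma called 0 of these 14 genes, with 0 higher and 7 lower at an unadjusted p under 0.05 (12.9% and 11.7% of all genes). The median log2 fold change was -0.94 beside 0.02 for all genes (-1.05 within array set 1, -0.60 within set 2). Both 14 day arrays lay below both 3 day arrays for 10 of them, where 28.5% of all genes did. At 14 days against 0 days 0 were called and 3 were lower at an unadjusted p under 0.05 (9.37% of all genes). The median there was -0.51 beside 0.11 for all genes. PFD1, a prefoldin subunit, had the smallest F p (limma F test, adjusted p = 0.0803), with 110 and 204 at 0 days, 192 and 164 at 3 days, 52.3 and 51.7 at 7 days and 89.9 and 74.9 at 14 days. Of 11 tested septin and contractile ring genes limma called 0 at 14 days against 0 days. At an unadjusted p under 0.05, 1 was lower, where 9.37% of all genes were. GIN4, a kinase of septin assembly, had 24.8 and 23.8 at 14 days against 64.7 and 147 at 0 days (limma adjusted p = 0.0928).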
